A study of Caenorhabditis elegans with 3 samples.

Results

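The 10 genes described here act in programmed cell death and in the clearance of dead cells, and were measured in the nematode Caenorhabditis elegans, in adult hermaphrodites: cep-1, egl-1, ced-9, ced-4, ced-3, ced-1, ced-7, ced-6, ced-2 and ced-10. They were found by their gene symbol in the platform's probe annotation. Of the 10 genes, 7 had a row on the arrays, each a single row with a value on all 3 arrays, among 19293 genes and unnamed rows tested. The other 3 (egl-1, ced-2 and ced-10) had no row under their symbol and were not analysed here. The samples were 3 arrays with 2 channels each. The channel of interest held mRNA of hermaphrodites labelled TP12 adult w/ emb 3, taken here as adults carrying embryos, in preparations 1, 2 and 3. The other channel held mRNA of a wild-type mixed reference, whose stages and sexes the labels do not describe. No strain, mutation or treatment of the adults is given, and nothing in them says that the preparations came from separate cultures, so the p-values measure the spread between these arrays, which may be technical.

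In C. elegans most somatic cells that are to die use 1 short pathway. EGL-1, a small protein of the BH3-only kind, binds CED-9, the worm's Bcl-2 protein, and so frees CED-4, the counterpart of Apaf-1, which activates the caspase CED-3. CEP-1, the worm's p53, raises egl-1 after DNA damage in germ cells. The corpse is then taken up by a neighbouring cell through a pair of pathways, CED-1, CED-6 and CED-7 on the one hand and CED-2, CED-5 and CED-12, which act on the Rac GTPase CED-10, on the other. Apart from the embryos that they carry, adult hermaphrodites have most deaths in the gonad. There germ cells in meiotic prophase are removed and engulfed by the somatic sheath cells. No sequences of these genes were printed, since no sequence table was used here.

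Each value is the log2 ratio of the channels as deposited. The ratio's direction is not stated in the labels. It is called likely adults over reference, from the order of the channels in the labels and from marker genes of stage: 17 of 19 measured eggshell and oocyte genes lay above 0 past the test and 0 below, while 28 of 35 sperm genes and 13 of 24 moulting genes lay below and 0 above. Of 3 measured yolk genes, listed for the same check, 1 lay above 0 past the test, 0 lay below and 2 did not pass, with a median of 0.24. These lists were used to read the direction, so they give no independent evidence of it, and under the opposite direction higher and lower would change places throughout. The arrays held 19904, 19832 and 19839 values for replicates 1, 2 and 3. Replicates 2 and 3 correlated at r = 0.892 over all rows, and replicate 1 correlated with them at 0.676 and 0.658. Since each array was centred near 0, a ratio is relative to the bulk of the genes. In RNA of whole animals, more cells of a kind and more RNA per cell cannot be told apart.

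Of the 7 measured genes, 4 were higher in the adults than in the reference (ced-4, cep-1, ced-6 and ced-1), 0 were lower and 3 did not pass (ced-7, ced-3 and ced-9), by limma with Benjamini-Hochberg adjustment over all genes and a threshold of 0.05. At an unadjusted p under 0.05 the counts were 5 higher and 0 lower, against 3926 higher and 3594 lower of all 19293 genes tested. With the adjustment, 14.8% of all genes tested were called higher and 13.7% lower. The median log2 ratio of the 7 was 0.49, against 0.018 over all genes tested. Of the 21 single values, 3 for each gene, 20 were above 0, the exception being ced-9 in replicate 1. Thus 6 of the 7 genes were above 0 on all 3 arrays, as were 30.1% of all genes tested. The ratios were moderate: the highest, that of ced-4, corresponds to 1.96-fold. Without replicate 1 the count of higher genes was 5 of 7, where 22.2% of all genes were called higher. Without replicate 2 it was 1 of 7 (9.28% of all genes) and without replicate 3 it was 2 of 7 (9.83%).

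**Figure D1:**
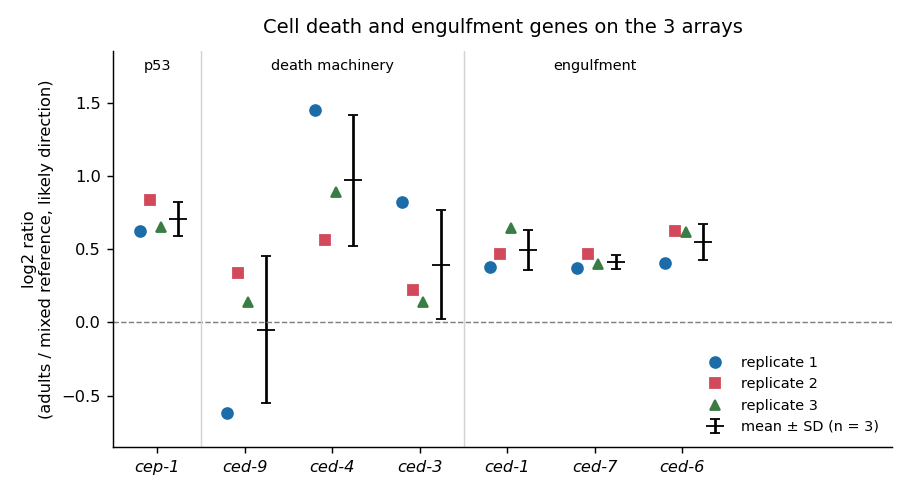
Log2 ratio of adults over mixed reference (vertical axis, likely direction) for the 7 measured genes, ordered by role: the worm's p53, the death machinery and the engulfment genes. Symbols are the 3 arrays and the black bar is the mean ± SD (n = 3). The engulfment genes ced-1, ced-7 and ced-6 lie between 0.37 and 0.64 on all arrays, while ced-9, ced-4 and ced-3 have replicate 1 far from the other arrays.

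The gene of the p53 protein, cep-1 (F52B5.5), stood at 0.62, 0.84 and 0.65 in replicates 1, 2 and 3. All 3 arrays were above 0 and close to each other. The mean was 0.70 ± 0.12 (SD, n = 3), or 1.63-fold, with a 95% confidence interval of the moderated fit of 0.38 to 1.02 and an adjusted p of 0.00758 (limma). A higher ratio was found for 9.02% of the genes tested. Without replicate 2 the mean was 0.64 and the call was lost (adjusted p = 0.0594, limma), while without replicate 1 or 3 it passed.

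The genes of the death machinery itself had the widest spreads of the 7. The Apaf-1 gene ced-4 (C35D10.9) had the highest ratio of the 7, at 1.45, 0.56 and 0.89 in replicates 1, 2 and 3. All 3 values were above 0, and replicate 1 was the highest. The mean was 0.97 ± 0.45 (SD, n = 3), with a confidence interval of 0.54 to 1.4 and an adjusted p of 0.00696 (limma), and 4.3% of the genes tested had a higher ratio. It passed without each replicate in turn, with means of 0.73, 1.17 and 1.01 without replicates 1, 2 and 3.

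The Bcl-2 gene ced-9 (T07C4.8), whose product holds CED-4 inactive, stood at -0.62, 0.33 and 0.14. Replicate 1 was below 0 and the other arrays above. The mean was -0.049 ± 0.50 (SD, n = 3), with an interval of -0.51 to 0.41 and an adjusted p of 0.886 (limma), so that a ratio of up to 0.41 in the direction of ced-4 lies within the error. Without replicate 1 the mean was 0.24 and did not pass either (adjusted p = 0.165, limma). Of all genes tested, 90.3% had a smaller SD over the arrays than ced-9.

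The caspase gene ced-3 (C48D1.2) stood at 0.82, 0.22 and 0.14. All 3 values were above 0, with replicate 1 well above the others. The mean was 0.39 ± 0.37 (SD, n = 3), with an interval of -0.0071 to 0.79, and it did not pass (adjusted p = 0.135, limma). Without replicate 1 the mean was 0.18, against 0.39 over all arrays. On every array the ratio of ced-4 exceeded that of ced-3, by 0.63, 0.34 and 0.76 in replicates 1, 2 and 3. The ratio of ced-4 also exceeded that of ced-9 on every array, by 2.07, 0.23 and 0.75.

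The 3 measured engulfment genes had similar ratios and small spreads. The gene of the receptor on the engulfing cell, ced-1 (Y47H9C.4), stood at 0.38, 0.47 and 0.64. The gene of its adaptor protein, ced-6 (F56D2.7), stood at 0.40, 0.62 and 0.62. The gene of the ABC transporter ced-7 (C48B4.4), which acts in both the dying and the engulfing cell, stood at 0.37, 0.47 and 0.40. All 9 values were above 0 and their ranges overlapped among the 3 genes. The means were 0.49 ± 0.14 for ced-1, 0.55 ± 0.12 for ced-6 and 0.41 ± 0.05 for ced-7 (SD, n = 3).

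Among these, ced-6 (adjusted p = 0.0213) and ced-1 (0.0326) passed, and ced-7 missed the threshold (0.0555, all by limma). The interval of ced-7, 0.099 to 0.72, lay above 0 before adjustment and overlapped those of ced-6 (0.23 to 0.87) and ced-1 (0.17 to 0.82), so the 3 calls do not show that ced-7 differed from the others. Only 3.26% of the genes tested had a smaller SD than ced-7. With replicate 1 left out all 3 passed, with means of 0.55 for ced-1, 0.62 for ced-6 and 0.43 for ced-7. With replicate 2 left out none of the 3 did (adjusted p = 0.151, 0.148 and 0.311), nor with replicate 3 left out (0.292, 0.176 and 0.297, limma).

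In descending order of the mean the genes ran ced-4, cep-1, ced-6, ced-1, ced-7, ced-3 and ced-9. Of neighbours in this order, only cep-1 and ced-6 had ranges over the arrays that did not overlap, and the lowest value of cep-1 (0.62106) lay just above the highest of ced-6 (0.62012). Of the 21 pairs of genes, 8 had ranges that did not overlap, 5 of them between ced-9 and another gene. These ranges are given as a description and the pairs were not tested. The differences are between ratios to the reference and say nothing of which transcript was the more abundant.

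**Figure D2:**
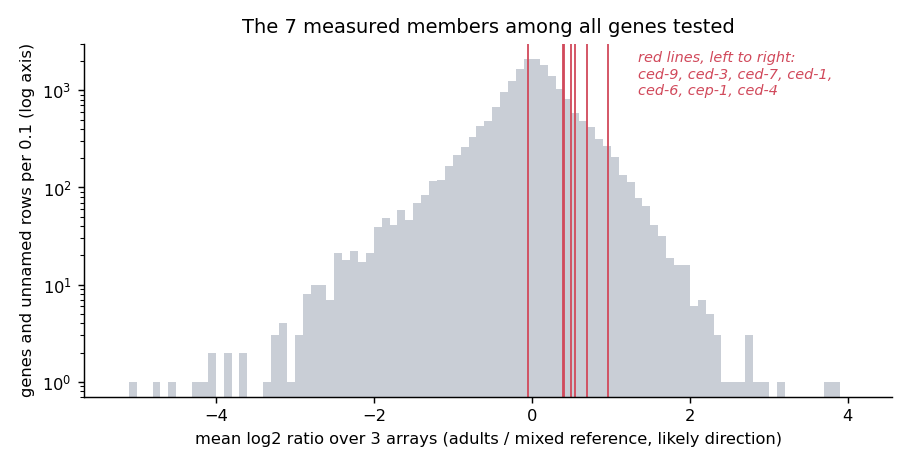
Number of genes and unnamed rows (vertical axis, log scale) by mean log2 ratio over the 3 arrays (horizontal axis, likely adults over reference), with the 7 measured genes as red lines. All but ced-9 lie on the upper flank of the distribution, from 0.39 for ced-3 to 0.97 for ced-4, and ced-9 lies near the centre.

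In replicate 1 the values varied more with the place of a row in the table than in the other arrays. With the 20000 rows divided into 32 consecutive blocks, the block medians ran from -0.35 to 0.39 in replicate 1, against -0.12 to 0.24 in replicate 2 and -0.12 to 0.21 in replicate 3. In replicate 1 the median of the block that holds ced-4 was 0.36 and that of ced-3's block 0.31, while the block shared by ced-9 and ced-1 stood at -0.27. The part of place in the replicate 1 values of these genes was not tested beyond the centring. With each block centred on its median, ced-4 stood at 1.09, 0.42 and 0.68 in replicates 1, 2 and 3, with a mean of 0.73 ± 0.34 (SD, n = 3) and an adjusted p of 0.00971 (limma). Centring brought ced-9 to -0.35, 0.16 and 0.082, and ced-3 to 0.52, 0.32 and 0.16. With centring the SD was smaller for 5 genes, at 0.27 for ced-9, 0.34 for ced-4, 0.18 for ced-3, 0.090 for ced-6 and 0.022 for cep-1, and larger for the other 2, at 0.19 for ced-1 and 0.14 for ced-7. In the same fit 5 of the 7 genes were higher (16.2% of all genes), since ced-7 passed too (0.38, adjusted p = 0.0458) and ced-3 and ced-9 did not (0.0774 and 0.875, limma).

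**Figure D3:**
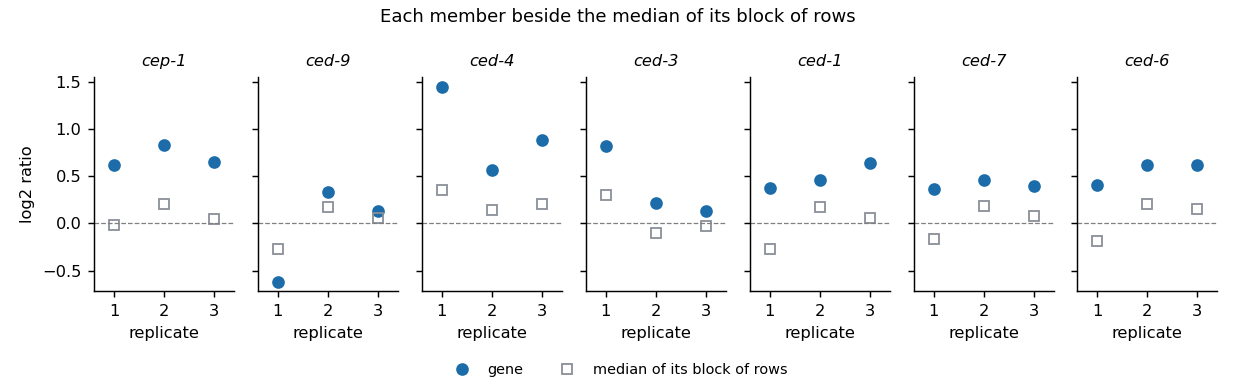
Log2 ratio of each gene (filled circles) on the 3 arrays, beside the median log2 ratio of the block of rows it lies in (open squares). In replicate 1 the squares of ced-4 and ced-3 lie at 0.36 and 0.31, and that of ced-9 at -0.27, while ced-1, in the same block as ced-9, lies at 0.38.

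The genes next to the members on the chromosome were taken from the RefSeq gene table. Of 14 adjacent protein-coding genes 11 were measured, of which 4 were higher, 2 lower and 5 did not pass (36.4% higher and 18.2% lower, against 14.8% and 13.7% of all genes). On both sides of ced-4 the neighbours had nearly its values: F26A1.1 stood at 1.51, 0.68 and 0.60 and C35D10.8 at 1.57, 0.57 and 0.65 in replicates 1, 2 and 3. Their means were 0.93 ± 0.51 and 0.93 ± 0.56 (SD, n = 3), both past the test (adjusted p = 0.0108 and 0.0136, limma). The rows of F26A1.1 and C35D10.8 lay 2499 and 5000 rows from that of ced-4, in other blocks. The other measured neighbours lay 4, 12, 4992, 4996 or 5000 rows from their members, so the distances recurred. Centring by blocks or by neighbouring rows acts on consecutive rows only. The part of a layout shared at such distances was not tested. With the 32 blocks centred all 3 were lower than before, ced-4 at 0.73, F26A1.1 at 0.76 and C35D10.8 at 0.72. With the median of the 51 rows around each row subtracted, an alternative chosen after seeing the data, ced-4 stood at 0.71, F26A1.1 at 0.56 and C35D10.8 at 0.55, and without replicate 1 they stood at 0.73, 0.64 and 0.61. All of these passed.

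Next to cep-1 on the chromosome lay ythc-2, whose row was only 4 rows from that of cep-1, and rpl-23A.2, at 5000 rows. They stood at 0.76 ± 0.37 and 0.66 ± 0.13 (SD, n = 3), both higher (adjusted p = 0.0135 and 0.0104, limma). Without replicate 2 they stood at 0.61 and 0.62 and did not pass, and without replicate 3 rpl-23A.2 stood at 0.61 and did not pass. Beside ced-3, C48D1.1 was lower at -0.89 ± 0.33 (adjusted p = 0.00571, limma), unlike ced-3 itself. Beside ced-9, ttr-15, a transthyretin-related gene, was lower at -0.92 ± 0.36 (adjusted p = 0.00579, limma). On its other side lies mev-1, a subunit gene of mitochondrial complex II known to be transcribed in 1 operon with ced-9. It stood at -0.41, -0.27 and -0.026, and like ced-9 it did not pass (mean -0.24 ± 0.19, SD, n = 3, adjusted p = 0.28, limma). Replicate 1 was the lowest of the 3 arrays for ced-9, for mev-1 and also for ttr-15 (-1.30, -0.89 and -0.58). The rows of mev-1 and ttr-15 lay 4996 and 4992 rows from that of ced-9, and the part of a shared layout was not tested.

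For the engulfment pathway that ends in the Rac protein CED-10, the measured partners were read from a list of 26 further genes of engulfment and corpse recognition. Of 23 measured, 10 were higher, 0 lower and 13 did not pass (43.5% higher, against 14.8% of all genes), with a median of 0.36. At an unadjusted p under 0.05 (limma) 13 were higher and 0 lower, against 3926 higher and 3594 lower of all 19293 genes. The DOCK180 gene ced-5 stood at 0.76, 0.90 and 0.54 in replicates 1, 2 and 3, a mean of 0.74 ± 0.18 (SD, n = 3, adjusted p = 0.0074, limma), and was not called without replicate 2 (adjusted p = 0.0533, limma). Its partner, the ELMO gene ced-12, stood at 0.56, 0.44 and -0.076 and did not pass (mean 0.31, adjusted p = 0.216, limma). The genes abi-1 and wve-1, whose products belong to the WAVE complex of actin branching, stood at 1.05 ± 0.09 and 0.83 ± 0.14 (SD, n = 3, adjusted p = 0.00145 and 0.00408, limma). Further WAVE genes of the list, gex-2 and gex-3, stood at 0.55 ± 0.10 and 0.50 ± 0.15 (SD, n = 3). Neither gex-2 nor gex-3 passed without replicate 2 (0.50 and 0.42) or without replicate 3 (0.57 and 0.53), and gex-2 stood at 0.34 with the 32 blocks centred and did not pass. The APC-related gene apr-1 stood at 0.71 ± 0.12 (SD, n = 3, adjusted p = 0.00746, limma), and at 0.66 without passing when replicate 3 was left out.

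The Rac relatives of ced-10 did not pass. The gene rac-2 stood at 0.99, -0.034 and -0.088 and mig-2 at -0.050, -0.51 and -0.26 in replicates 1, 2 and 3. For rac-2, 1 array was far above the others, and its mean of 0.29 became -0.061 without replicate 1. The products of rac-2 and ced-10 are closely similar, so the probe of rac-2 may also take up ced-10 transcripts. Without replicate 1 mig-2 passed, at -0.39 (adjusted p = 0.0398, limma). For the list, the counts higher were 12, 4 and 5 without replicates 1, 2 and 3, with 1, 0 and 0 lower, where 22.2%, 9.28% and 9.83% of all genes were called higher.

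**Figure D4:**
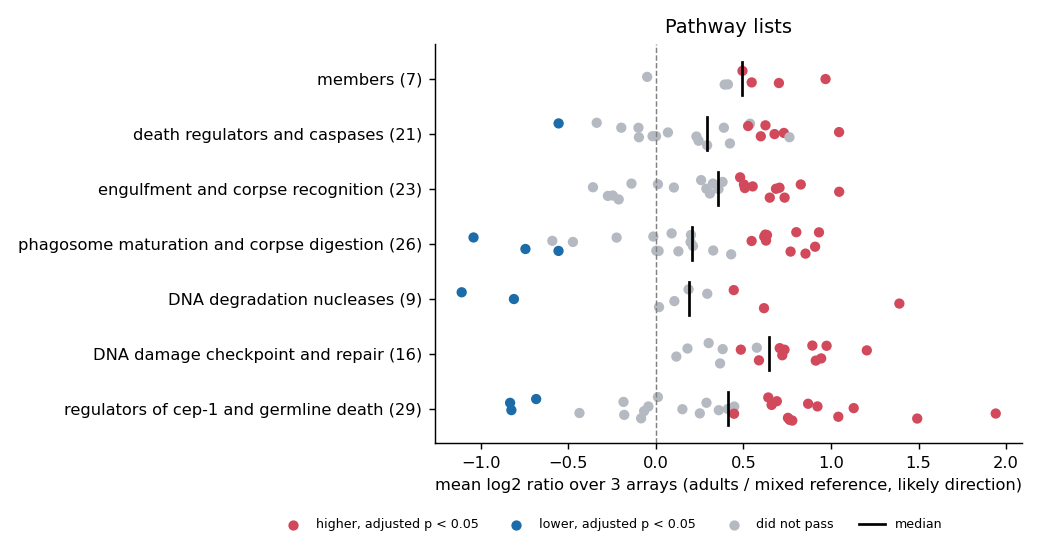
Mean log2 ratio over the 3 arrays (horizontal axis, likely adults over reference) of each measured gene of the pathway lists, with the number measured in brackets. Red and blue points passed the test as higher and lower, grey points did not, and the black line is the list's median. The DNA damage list has a median of 0.65 and 0 lower genes, and the nuclease list holds both the lowest value, -1.11 for nuc-1, and 1.39 for dcr-1.

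A further list held 24 regulators of death, other caspases and mitochondrial genes. Of 21 measured, 6 were higher, 1 lower and 14 did not pass (28.6% higher and 4.76% lower, against 14.8% and 13.7% of all genes), with a median of 0.29. The mitochondrial fission gene drp-1 had the lowest p of them, at 1.45, 0.78 and 0.91 in replicates 1, 2 and 3 (mean 1.05 ± 0.36, SD, n = 3, adjusted p = 0.00335, limma). The bZIP gene ces-2, known in cell-death specification, stood at 0.73 ± 0.24, the Arf exchange factor gene grp-1 at 0.68 ± 0.05 and the mitochondrial fusion gene eat-3 at 0.63 ± 0.23 (SD, n = 3). The F-box gene dre-1 was the single lower gene, at -0.55 ± 0.25 (adjusted p = 0.029, limma). Neither eat-3 nor dre-1 passed without replicate 2 (0.52 and -0.56) or replicate 3 (0.62 and -0.68), and ces-2 did not without replicate 3 (0.65). With the neighbouring rows subtracted grp-1 stood at 0.34 and did not pass, and ces-2 at 0.45. The count of higher genes was 11, 3 and 2 without replicates 1, 2 and 3 (22.2%, 9.28% and 9.83% of all genes), with 1, 0 and 0 lower.

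Genes of the DNA damage response, which acts through cep-1 in the germ line, had the highest median of the pathway lists. Of 16 measured, 10 were higher, 0 lower and 6 did not pass (62.5% higher, against 14.8% of all genes), with a median of 0.65. With an unadjusted p under 0.05 (limma) 13 were higher and 0 lower, against 3926 and 3594 of all 19293 genes. The BRCA1 gene brc-1 stood at 1.33, 1.49 and 0.79 (mean 1.20 ± 0.37, SD, n = 3, adjusted p = 0.00197, limma). The nuclease gene lem-3 stood at 0.98 ± 0.25, cid-1 at 0.91 ± 0.16 and the helicase gene dog-1 at 0.89 ± 0.13 (SD, n = 3). With the neighbouring rows subtracted cid-1 stood at 0.46 and still passed. The checkpoint sensor gene hus-1 stood at 0.18 and atl-1, the ATR gene, at 0.30, and neither passed (adjusted p = 0.542 and 0.284, limma). Without replicate 1 both did, at 0.45 and 0.53. Without replicates 2 and 3 neither did, hus-1 at 0.091 and 0.0011 and atl-1 at 0.075 and 0.30. Of the 16 genes of the list, 15, 7 and 9 were higher without replicates 1, 2 and 3, where 22.2%, 9.28% and 9.83% of all genes were. The checkpoint gene clk-2 passed narrowly at 0.49 ± 0.26 (SD, n = 3, adjusted p = 0.0496, limma). It did not pass without replicate 2 (0.43) or 3 (0.39), and stood at 0.20 with the neighbouring rows subtracted. The call was also lost with each array centred on its median, with quantile normalisation, with robust moderation and with values on at least 2 arrays (adjusted p = 0.0576, 0.0519, 0.0501 and 0.0545, limma).

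Of 29 measured regulators of cep-1 and of germ cell death, 13 were higher, 3 lower and 13 did not pass (44.8% higher and 10.3% lower, against 14.8% and 13.7% of all genes), with a median of 0.41. The helicase gene cgh-1, whose loss is known to raise germ cell death, stood at 2.12, 2.01 and 1.70 (mean 1.94 ± 0.22, SD, n = 3, adjusted p = 0.000206, limma). The gene gld-1, whose product is known to repress translation of cep-1 mRNA, stood at 1.49 ± 0.26. The F-box gene fsn-1, known as a negative regulator of CEP-1, stood at 1.04 ± 0.25 and the zinc finger gene gla-3 at 1.13 ± 0.33 (SD, n = 3). The lower genes were the Skp1-related gene skr-1 at -0.83 ± 0.21, akt-2 at -0.82 ± 0.27 and kgb-1 at -0.68 ± 0.48 (SD, n = 3). Without replicate 1 kgb-1 stood at -0.41 and passed, and with the neighbouring rows subtracted fsn-1 stood at 0.55 and passed. The pair of Pax genes known to promote ced-9 expression, pax-2 and egl-38, stood at -0.042 and 0.15 and did not pass (adjusted p = 0.869 and 0.509, limma). Without replicates 1, 2 and 3 the list held 16, 10 and 11 higher genes, with 3 lower in each case. Of all genes, 22.2%, 9.28% and 9.83% were then called higher.

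Of 26 measured genes of phagosome maturation and corpse digestion, 10 were higher, 3 lower and 13 did not pass, with a median of 0.21. The shares were 38.5% higher and 11.5% lower, against 14.8% and 13.7% of all genes, so that the share of lower genes was near that of all genes. The Rab GTPase-activating gene tbc-2 stood at 0.95, 0.92 and 0.92 (mean 0.93 ± 0.02, SD, n = 3, adjusted p = 0.00209, limma), the lysosomal channel gene cup-5 at 0.91 ± 0.31 and the cathepsin L gene cpl-1 at 0.85 ± 0.23. The ubiquitin-like autophagy gene lgg-1 was lower at -1.04 ± 0.13, as were unc-108, a Rab2 gene, at -0.74 ± 0.15 and the PI3-kinase gene vps-34 at -0.56 ± 0.31 (SD, n = 3). The call of vps-34 was lost without replicate 2 (-0.65) or 3 (-0.64). For the list without replicate 1, 12 genes were higher and 5 lower, against 22.2% higher and 3881 lower of all 19302 genes. Without replicate 2 the counts were 6 and 2, against 9.28% higher and 1687 lower of 19348. Without replicate 3 they were 7 and 2, against 9.83% higher and 1931 lower of 19347.

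Among 9 measured nuclease genes of corpse DNA degradation, 3 were higher, 2 lower and 4 did not pass (33.3% higher and 22.2% lower, against 14.8% and 13.7% of all genes), with a median of 0.19. Of the 3 DNase II genes, nuc-1 and crn-6 were lower and crn-7, at 0.64, -0.43 and -0.16 in replicates 1, 2 and 3, did not pass (adjusted p = 0.961, limma). The gene nuc-1 stood at -0.93, -1.12 and -1.27 (mean -1.11 ± 0.17, SD, n = 3, adjusted p = 0.00137, limma), 2.16-fold lower in the adults, and crn-6 at -0.81 ± 0.30 (SD, n = 3, adjusted p = 0.00764, limma). Dicer, dcr-1, whose product is known to be cut by CED-3 into a DNase, was higher at 1.88, 1.13 and 1.16 (mean 1.39 ± 0.42, SD, n = 3, adjusted p = 0.00144, limma). The exosome-related gene crn-3 stood at 0.62 ± 0.32 and passed (SD, n = 3, adjusted p = 0.0254, limma), but did not with the 32 blocks centred (0.38), the neighbouring rows subtracted (0.39) or without replicate 3 (0.63). With replicate 3 left out, 1 nuclease gene was higher and 2 were lower, against 9.83% higher and 1931 lower of all 19347 genes.

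Germ cell genes were higher in the adults together with the members that passed. Of 18 measured genes of a germ cell list, 16 were higher and 0 lower (88.9% higher, against 14.8% of all genes), with medians of 0.91, 1.09 and 0.94 in replicates 1, 2 and 3, against medians of the 7 death and engulfment genes of 0.40, 0.47 and 0.62. Of 10 measured genes of a list drawn up for the gonadal sheath, 2 were higher, 1 lower and 7 did not pass (20% higher and 10% lower, near the 14.8% and 13.7% of all genes), with a median of 0.11. The higher genes were lin-3 (0.60) and sys-1 (0.80), and the lower one was ceh-18 (-0.88). The genes lim-7, inx-8 and inx-9 stood at 0.034, 0.26 and 0.0019 and did not pass. Not all genes of the list are particular to the sheath, so its counts do not describe the sheath cells alone. The part of a larger share of germ cell RNA in the ratios of the death genes was not tested. Nor was that of RNA from embryos carried by the adults.

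For each of the 7 genes, the gene most like it over the 3 arrays was sought among 124 measured genes of the pathway lists and mev-1, by the Euclidean distance of their log2 ratios. The nearest to ced-7 was mpk-1, a MAP kinase gene, at 0.40, 0.48 and 0.45 (distance 0.066), and the nearest to cep-1 was cku-80, a Ku subunit gene, at 0.69, 0.78 and 0.69 (0.096). The nearest to ced-6 was gex-2 (0.13), to ced-1 the nuclease gene crn-4 (0.17), to ced-4 the gene drp-1 (0.21), to ced-9 the gene ape-1 (0.28), and to ced-3 the gene rab-7 (0.33). Of all 19293 genes tested, 18 lay at least as near to ced-7, 18 to cep-1 and 19 to ced-4, the named gene included. The counts were 59 for ced-6, 100 for ced-1, 356 for ced-9 and 616 for ced-3. For ced-9 and ced-3, then, many other genes were as like them as the gene named.

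**Figure D5:**
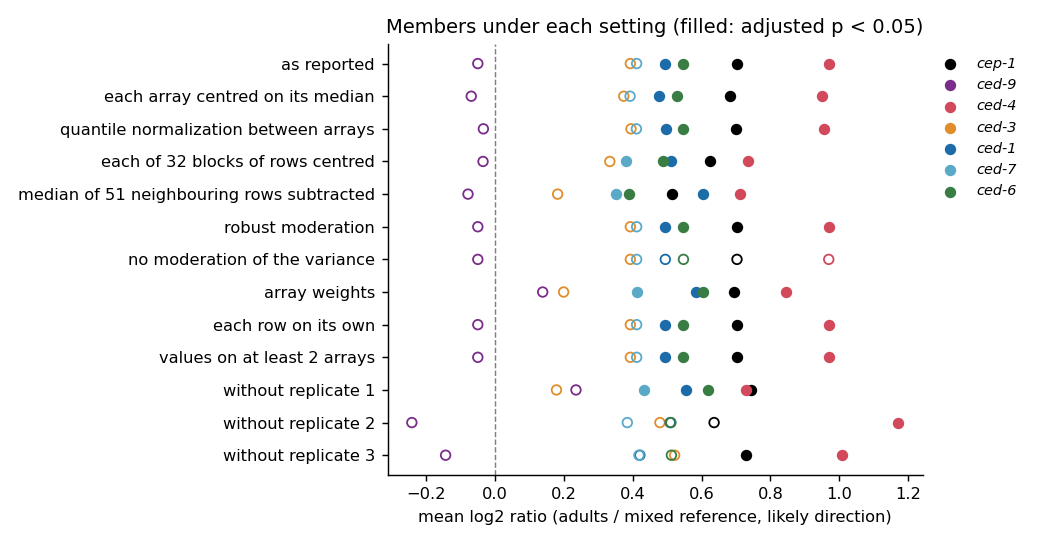
Mean log2 ratio of the 7 genes (horizontal axis, likely adults over reference) as reported and under each other way of processing (rows). Filled circles passed an adjusted p of 0.05 in that fit and open circles did not; ced-4 is filled in every row but the fit without moderation, and ced-3 and ced-9 are open in all.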

How the data were processed

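The authors deposited log2 ratios, 1 for each array and row. Base 2 follows from the values, since all 59554 linear ratios under 10 then fall on a 0.001 grid, to within 0.01 of a step. The scanner, background correction and normalisation, not given in the sources used here, are unknown, and dim or saturated spots could not be set apart. Rows were named by the platform annotation of 2007, updated by gene identifier through the RefSeq table of WBcel235, and rows of a symbol were averaged. Genes with values on all 3 arrays were tested against 0 in limma 3.58.1 (R 4.3.3; lmFit, eBayes; prior of 5.86 degrees of freedom), two-sided, with Benjamini-Hochberg adjustment over all 19293. An exact sign-flip test on 3 arrays cannot go below p = 0.25. The fit was tested on simulated data. The number of arrays limits the precision.

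The members, the lists and the rules were chosen with earlier results of these data known. Named were all measured members, the 4 genes of each list with the smallest p among those that passed and the first of the other direction, mev-1, rac-2 and mig-2, each member's nearest gene and its chromosomal neighbours that passed. Others (ced-12, gex-2, gex-3, hus-1, atl-1, clk-2, akt-2, kgb-1, pax-2, egl-38, unc-108, vps-34 and crn-7) were added after their values were seen. Alternatives changed centring, scaling, variance, weights, averaging, missing values and replicates.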

Additional observations from a re-analysis of the deposited data

How the results depend on the processing

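No paired analysis was possible because the 3 arrays form 1 group, tested against a reference without samples of its own. The calls rest on the variance shared across genes: without its moderation 0 genes passed in limma, higher or lower, with 2619 higher and 2284 lower at an unadjusted p under 0.05, and so 0 of the members (4 higher unadjusted) and 0 of each pathway list, while the means of ced-1, ced-4, ced-6 and cep-1 stayed 0.49, 0.97, 0.55 and 0.70 (adjusted p = 0.155, 0.217, 0.141 and 0.13). With array weights, which gave replicate 1 a weight of 0.282 and replicate 3 one of 3.16, 4874 genes were higher and 4413 lower, ced-7 passed at 0.41 and ced-9 turned to 0.14 without passing. The death regulators then numbered 10 higher and 2 lower, with 1 engulfment gene and 5 phagosome genes lower. The lower phagosome genes were also 5 with the median of 51 neighbouring rows subtracted, an alternative chosen after seeing the data, where ced-7 passed at 0.35. It also passed with the 32 blocks centred, at 0.38. Each row on its own gave 1 lower engulfment gene. Leaving out 1 replicate gave 1796 to 4276 genes higher and 1687 to 3881 lower, and 1 to 5 members higher. The higher and lower counts then ran over 2 to 11 and 0 to 1 for the death regulators, 4 to 12 and 0 to 1 for engulfment, 6 to 12 and 2 to 5 for phagosome genes, 1 to 3 higher nucleases, and 7 to 15 higher genes of the DNA damage list. The mean of ced-1 ran from 0.42 to 0.55, of ced-6 from 0.51 to 0.62, of ced-7 from 0.38 to 0.43, of cep-1 from 0.64 to 0.74, and of ced-9 from -0.24 to 0.24. Among the other named genes rac-2 turned to -0.0079 and rab-7 to -0.028 with array weights. Without replicate 1 rac-2 stood at -0.061, rab-7 at -0.029 and ape-1 at 0.040, and rab-7 at -0.075 with neighbouring rows subtracted. Leaving out 1 replicate gave -0.061 to 0.48 for rac-2, -0.35 to 0.040 for ape-1, -0.17 to 0.053 for pax-2 and -0.29 to 0.24 for crn-7. The value of crn-7 was -0.00071 with median centring, -0.16 with blocks centred, -0.31 with neighbouring rows subtracted and -0.18 with array weights. None of these passed in either direction. The cause of each change was not tested. Leaving out 1 replicate left 2 arrays in each case. Higher genes then numbered 4276, 1796 and 1901 without replicates 1, 2 and 3, against 2854 on all arrays.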
